A study of Mus musculus with 24 samples.

Results

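The subunits of the 5 oxidative phosphorylation complexes were followed in mouse liver, gene by gene and complex by complex. They were chosen by gene name alone: the Nduf genes of series a, b, c, s and v for complex I, Sdha to Sdhd for complex II, the Uqcr genes for complex III, Cox4 to Cox8 for complex IV and the Atp5 genes for complex V, with assembly factors and pseudogenes left out. This gave 83 of the 37074 gene names on the array. A gene was kept when its probe, the brightest of its name, was well above background in the sample channel on 6 or more arrays of a diet. Of the 18649 genes kept, 81 were subunits: 37 of 37 for complex I, 4 of 4 for complex II, 8 of 8 for complex III, 15 of 17 for complex IV and 17 of 17 for complex V. The 2 that did not pass were the complex IV isoforms Cox8b and Cox8c. Of the 81, 80 were well above background on all 24 arrays, and the other, Cox6a2, on 11 arrays of each diet.

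The comparison asks how the liver of young mice differs when galactose replaces some of the glucose they eat from weaning on. Mice of the strain C57BL/6JRcc, all labelled female and housed singly, received from 3 weeks of age a semi-synthetic diet whose energy came to 16% from fat, 20% from protein, 32% from starch and 32% from monosaccharide. In the GLU group (12 mice) the monosaccharide was glucose, and in the GLU+GAL group (12 mice) it was glucose and galactose in equal parts, with no other difference given. At 6 weeks of age (postnatal day 42) the mice were killed after food had been withdrawn, in the light phase, and RNA of the right liver lobe, labelled with Cy5, was hybridised on 1 array per mouse against a Cy3-labelled pool of the RNA of all mice. Values are normalised log2 ratios of Cy5 (the mouse) over Cy3 (the pool). A ratio says nothing of how much of a transcript there is beside another gene's. The mice always carried Cy5, and some genes, such as Ndufb8 (-0.84 to -0.14 in GLU), lay below 0 in every mouse of both diets. A value of 0 is thus not the level of the pool, and ratios of a gene are compared only between mice. In whole liver, fewer cells of a type and less RNA per cell cannot be told apart.

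Oxidative phosphorylation makes ATP in the inner mitochondrial membrane. Complexes I (NADH dehydrogenase) and II (succinate dehydrogenase) pass electrons to coenzyme Q, complex III (cytochrome bc1) passes them on to cytochrome c, and complex IV (cytochrome c oxidase) to oxygen, while complex V (ATP synthase) uses the proton gradient that complexes I, III and IV build. Most subunits are encoded in the nucleus and a few core subunits in mitochondrial DNA, and transcription factors such as NRF1, YY1, the ETS factor GABP and the oestrogen-related receptors (ERR) are known to act on the nuclear genes. Hepatocytes are rich in mitochondria and use this ATP for glucose and urea synthesis, and galactose enters their metabolism through the Leloir pathway, which yields glucose phosphates.

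Promoter windows (250 bases before to 50 bases after the start, RefSeq, GRCm38.p6) were given for 68 of the 83 genes, and 7 motifs were searched in them on both strands. The NRF1 motif (GCGCA, any base, then GCGC) was present in 17 of the 68 (25%), against 7.17% of 17492 protein-coding genes and 9.95% of the 11563 genes tested here that have a window. The YY1 motif AANATGGCG was found in 11 (16.2%, against 3.64% and 5.27%), and the ETS motif CCGGAAG in 16 (23.5%, against 12.9% and 17.6%). At least 1 of these 3 motifs was held by 38 windows (55.9%, against 20.9% and 28.7%), and no match of one motif overlapped a match of another. The ERR motif TNAAGGTCA was found in 3 (4.41%, against 1.19% and 1.1%), the GC box GGGCGGG in 24 (35.3%, against 36.9% and 46.2%), CCAAT in 31 (45.6%, against 42.3% and 42.3%) and TATAAA in 7 (10.3%, against 14.8% of the protein-coding genes and 1243 of the 11563 genes tested, a share close to that of the subunits). By complex, NRF1 matches lay in 7 of 32 windows of complex I, 2 of 3 of complex II, 1 of 5 of complex III, 1 of 12 of complex IV and 6 of 16 of complex V. YY1 matches lay in 7 windows of complex I and 4 of complex V.

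The stretches below lie upstream of a single annotated start and show 1 motif match each in capitals, 5′ to 3′ on the strand of the gene. Only genes with a single annotated start and a match upstream of it were considered, which left out several that varied more alike the other subunits, such as Sdhb and Cox8a for the ETS motif. Of those considered, the first 5 are the ones that varied most alike the other subunits across the mice, as described further on (up to 2 per motif), and the last is Ndufa8, which also holds an NRF1 match and varied least alike. Their positions are chr5:108434405-108434484 (minus strand) for Atp5k, chr16:37654369-37654425 (minus) for Ndufb4, chrX:20617787-20617865 (minus) for Ndufb11, chr8:83566703-83566757 (plus) for Ndufb7, chr9:44920913-44920989 (minus) for Atp5l and chr2:36049339-36049403 (minus) for Ndufa8. The capitals mark NRF1 matches in Atp5k, Ndufb4 and Ndufa8, a YY1 match in Ndufb11 and ETS matches in Ndufb7 and Atp5l. The matches in Atp5l and Ndufa8 are the reverse complement of the motif.
Atp5k: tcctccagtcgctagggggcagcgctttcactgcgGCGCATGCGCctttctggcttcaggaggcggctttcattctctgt
Ndufb4: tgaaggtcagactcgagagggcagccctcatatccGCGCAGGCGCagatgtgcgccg
Ndufb11: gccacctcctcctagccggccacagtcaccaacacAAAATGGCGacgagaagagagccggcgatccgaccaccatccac
Ndufb7: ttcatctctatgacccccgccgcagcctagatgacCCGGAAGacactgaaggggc
Atp5l: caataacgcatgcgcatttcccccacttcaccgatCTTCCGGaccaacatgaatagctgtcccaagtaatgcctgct
Ndufa8: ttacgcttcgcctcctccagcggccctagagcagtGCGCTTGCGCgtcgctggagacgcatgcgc
The stretch of Ndufb4 also opens with the letters of the ERR motif. A match is a description of letters, and no binding was measured. The median diet difference was 0.036 in the genes with an NRF1 match and 0.029 in those without, and the median correlation with the other subunits was 0.67 and 0.68.

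In the Cy5 channel, 46.6% to 51.3% of the spots of an array passed the scanner's test against background. The arrays lay on 3 slides of 8, with 4 mice of each diet on each, so the slide is a possible batch. The reported differences, SEs, intervals and p-values come from a fit without the slide. It entered only in alternative fits, fits within a slide and the interaction test. The pool channel stood apart on 3 arrays (median Cy3 correlation with the other arrays 0.980 for GLU+GAL 4 and 0.994 for GLU 1 and GLU+GAL 5, and 0.997 or more elsewhere). All 12 hepatocyte markers, among them Alb and Hnf4a, were well above background on every array, so the tissue label was borne out. The number of arrays limits the precision, and whether the mice shared litters is not given.

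No subunit differed between the diets beyond the spread between mice. By limma, 0 of the 81 had an adjusted p under 0.05 and each had an adjusted p of 0.999, and over all genes the count was 0 of 18649 (0%), with a lowest adjusted p of 0.523. At an unadjusted p under 0.05 the count was 0 of 81 subunits, where 4.31% of all genes (803) lay, and the smallest p of a subunit was 0.098 (Cox7c, limma). The small differences leaned one way: 66 of the 81 had a higher mean in GLU+GAL, a share of 81.5% where 50.8% of all genes had one. Their median difference was 0.036 on the log2 scale, against 0.0013 over all genes. The differences ran from -0.055 (Cox7a2l) to 0.14 (Atp5s), with a median SE of 0.053, and the ranges of the diets overlapped for all 81. The upper 95% limit of the difference was under 0.2 for 73 of the 81 and at most 0.33, and the lowest limit was -0.39.

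**Figure D1:**
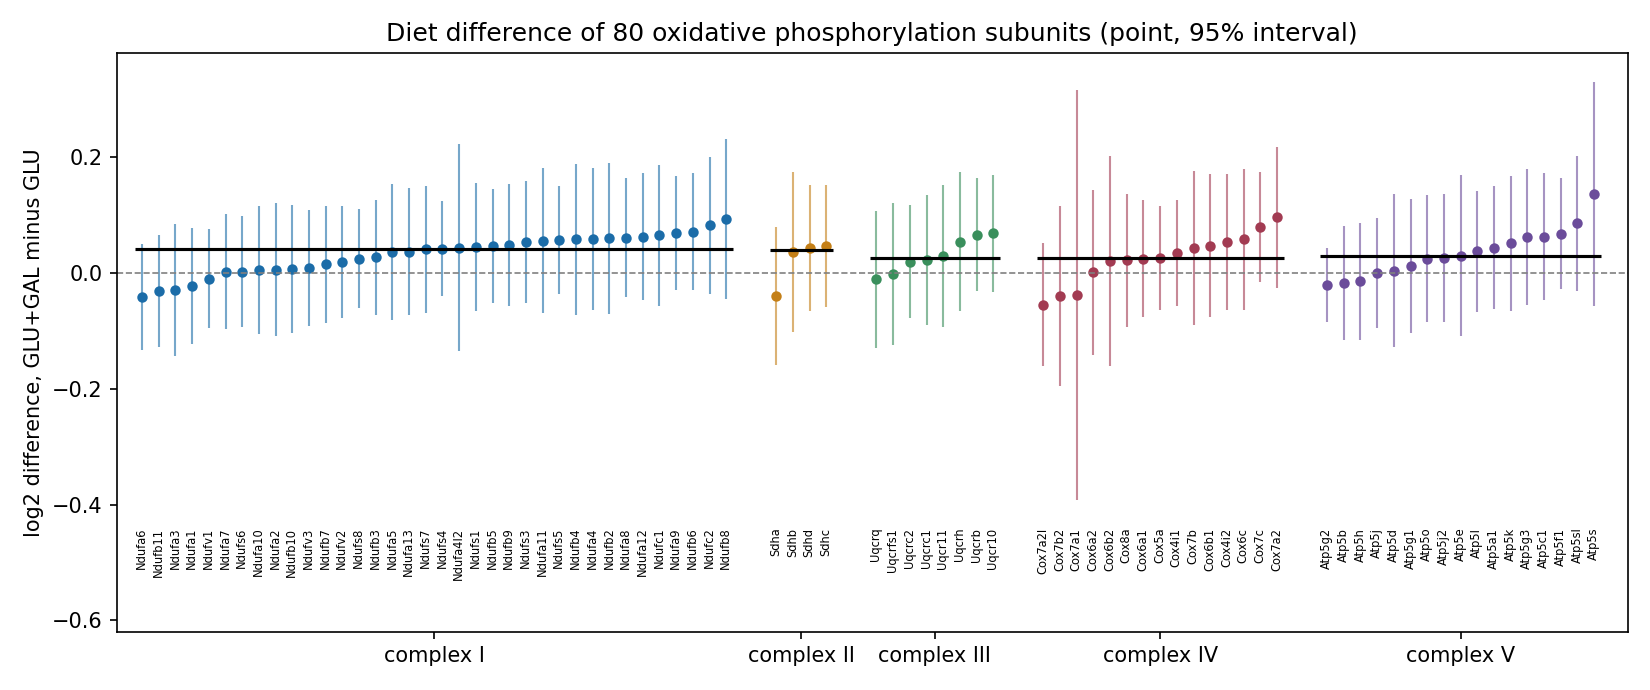
Difference in log2 ratio between GLU+GAL and GLU for 80 of the 81 subunits (points) with the 95% confidence interval (lines), by complex; black lines are the medians over all subunits of a complex. Most points lie between 0 and 0.1, every interval shown includes 0, and Cox7a1 and Atp5s have the widest intervals.

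Among the 37 genes of complex I, the entry point for electrons from NADH, 32 had a higher mean in GLU+GAL, and the median difference was 0.041. Ndufb8, an accessory subunit of the membrane arm, ran from -0.84 to -0.14 (median -0.52) in GLU and from -0.71 to -0.27 (median -0.39) in GLU+GAL. The GLU+GAL values all lay inside the range of GLU. Its difference was 0.093 ± 0.067 (SE, n = 12 per diet), the largest of the complex, and a further probe of Ndufb8 gave 0.011. Ndufa9, an accessory subunit near the site of coenzyme Q reduction, ran from -0.19 to 0.14 (median 0.018) in GLU and from -0.086 to 0.22 (median 0.081) in GLU+GAL. Several GLU+GAL mice lay above the GLU range while the rest overlapped with it, and the difference was 0.069 ± 0.048. Ndufb6 ran from -0.44 to -0.12 (median -0.26) in GLU and from -0.43 to 0.022 (median -0.21) in GLU+GAL, a difference of 0.071 ± 0.049, and Ndufc2 ran from -0.22 to 0.16 (median -0.083) in GLU and from -0.18 to 0.37 (median 0.024) in GLU+GAL, a difference of 0.082 ± 0.058. Both are accessory subunits of the membrane arm, and in both the diets overlapped over most of their range. In these 4 genes the difference was above 0 within each slide. Core subunits with a nuclear gene, which carry electrons from NADH towards coenzyme Q, lay in the same narrow band: Ndufs1, Ndufs3, Ndufs7, Ndufs8 and Ndufv2 had differences of 0.045, 0.054, 0.041, 0.025 and 0.019, and Ndufv1, which binds NADH, of -0.0095.

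Complex II, which is also an enzyme of the citric acid cycle, had a median difference of 0.040, and 3 of its 4 genes had the higher mean in GLU+GAL. Sdha, the flavoprotein that oxidises succinate, ran from -0.24 to 0.25 (median -0.0010) in GLU and from -0.22 to 0.15 (median -0.037) in GLU+GAL, a difference of -0.040 ± 0.058. Sdhb, the iron-sulphur subunit, ran from -0.29 to 0.19 (median -0.11) in GLU and from -0.32 to 0.26 (median -0.031) in GLU+GAL, a difference of 0.037 ± 0.067. The diets overlapped almost fully in both. The membrane anchors Sdhc (0.047 ± 0.051) and Sdhd (0.043 ± 0.053) had differences smaller than their SE. Sdhc was above 0 within each slide (0.026, 0.063 and 0.051 for slides 1, 2 and 3), and the other members of the complex were not.

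In complex III, 6 of 8 genes had the higher mean in GLU+GAL, with a median difference of 0.026. Uqcrb, a small subunit near a coenzyme Q site, ran from -0.31 to -0.021 (median -0.21) in GLU and from -0.29 to 0.081 (median -0.13) in GLU+GAL. All but 1 of the GLU+GAL mice lay within the GLU range, and the difference was 0.066 ± 0.048. Uqcr10 and Uqcr11 are small accessory subunits with differences of 0.068 ± 0.049 and 0.029 ± 0.060, the second with 1 value missing (GLU 12), and Uqcrh, the hinge protein, was 0.054 ± 0.059. The Rieske iron-sulphur protein Uqcrfs1 had the largest spread of the complex (SD 0.14 over the 24 mice) and a difference of -0.0017 ± 0.060, and the core proteins Uqcrc1 and Uqcrc2 were 0.023 ± 0.055 and 0.020 ± 0.048.

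Complex IV had 12 of 15 genes with the higher mean and a median difference of 0.026. Cox7c, a small nuclear subunit, ran from -0.40 to 0.000060 (median -0.19) in GLU and from -0.28 to 0.026 (median -0.14) in GLU+GAL. Of the 12 GLU+GAL mice, 11 lay above the GLU mean, yet only 2 lay above the GLU range. The difference was 0.079 ± 0.046 (95% interval -0.016 to 0.17), and it was 0.058, 0.028 and 0.15 within slides 1, 2 and 3. Cox7a2, the isoform of liver and most tissues, ran from -0.51 to 0.052 (median -0.26) in GLU and from -0.40 to 0.14 (median -0.19) in GLU+GAL, a difference of 0.096 ± 0.059 that was -0.046, 0.090 and 0.24 within the slides. Cox6c, another small nuclear subunit, was 0.058 ± 0.059. Cox7a2l, which is known for joining complexes III and IV into supercomplexes, ran from -0.31 to 0.046 (median -0.21) in GLU and from -0.47 to 0.0085 (median -0.22) in GLU+GAL. Its difference, -0.055 ± 0.052, was the lowest of the 81 and was below 0 within each slide (-0.032, -0.067 and -0.064).

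Complex V had 13 of 17 genes with the higher mean and a median difference of 0.030. Atp5f1, subunit b of the stalk that holds the catalytic head still, ran from -0.27 to 0.077 (median -0.080) in GLU and from -0.22 to 0.16 (median -0.0032) in GLU+GAL. The groups overlapped, and the difference was 0.068 ± 0.047. Atp5c1, the gamma subunit that turns inside the head, was 0.063 ± 0.053, and Atp5a1 and Atp5b, the alpha and beta subunits that form the head, were 0.044 ± 0.052 and -0.017 ± 0.048. Atp5s, named Dmac2l in RefSeq, had the highest difference of the 81, 0.14 ± 0.094, and the widest spread of the complex, running from -0.40 to 0.16 (median -0.14) in GLU and from -0.34 to 0.65 (median -0.0082) in GLU+GAL. Its highest mouse was GLU+GAL 4, whose pool channel stood apart, and without that array the difference was 0.076. Atp5sl, named Dmac2, was 0.086 ± 0.057. These genes carry Atp5 names, and RefSeq's current names no longer place them with the ATP synthase. With both and Cox7a2l left out, and Ndufa4 and Ndufa4l2 counted with complex IV, the medians were 0.037 for complex I, 0.039 for complex IV and 0.026 for complex V.

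The mean over all subunits of a mouse ranged from -0.22 (GLU 10) through a median of -0.12 to 0.070 (GLU 12) in GLU, and from -0.16 (GLU+GAL 11) through -0.092 to 0.065 (GLU+GAL 3) in GLU+GAL. The GLU+GAL range thus lay inside that of GLU. The group means were -0.10 ± 0.078 and -0.071 ± 0.079 (SD, n = 12 each) for GLU and GLU+GAL. In the same order they were -0.14 ± 0.072 and -0.11 ± 0.079 for complex I, -0.026 ± 0.11 and -0.0043 ± 0.086 for complex II, -0.099 ± 0.086 and -0.071 ± 0.090 for complex III, -0.10 ± 0.089 and -0.076 ± 0.091 for complex IV and -0.038 ± 0.085 and -0.0030 ± 0.085 for complex V. In each complex the distance between the diets was smaller than the SD of either. Single mice weighed on it: without GLU+GAL 3, the highest of its diet, the median difference over the 81 subunits was 0.022, and without GLU 12, the highest of GLU, it was 0.050.

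**Figure D2:**
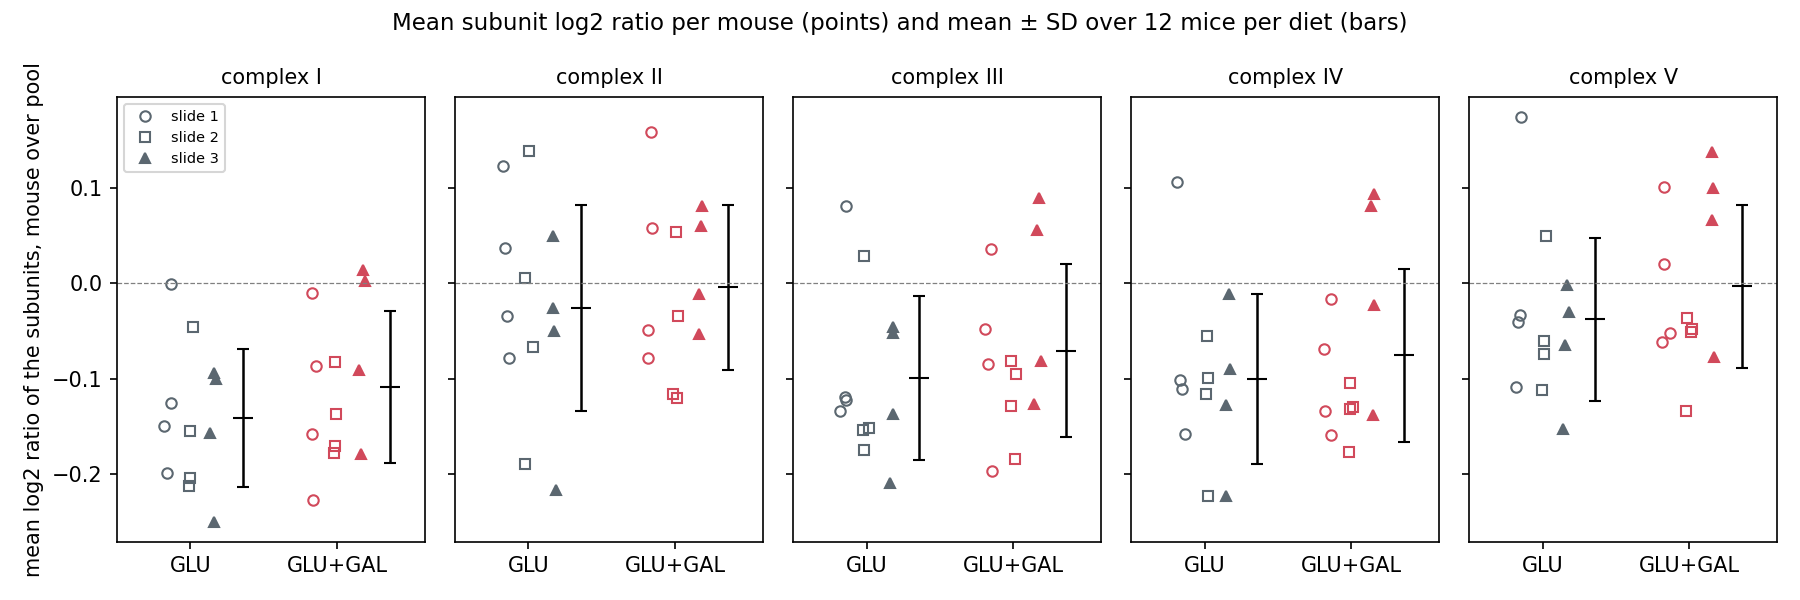
Mean log2 ratio over the subunits of each complex in every mouse, by diet, with the slide shown by the symbol; bars give the mean ± SD of the 12 mice of a diet. The diets overlap in all 5 complexes, GLU 12 is the highest GLU mouse in complexes I, III, IV and V, and GLU 10 is the lowest in complexes I, II, III and V.

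Most of the lean towards GLU+GAL lay within 1 of the 3 slides. Within slide 1, 43 of 81 subunits had the higher mean (48.2% of all genes did) with a median difference of 0.0034. Within slide 2 it was 39 (45.3% of all genes) with a median of -0.0013, and within slide 3 it was 74 (57.8% of all genes) with a median of 0.10. Over the complexes, the median within slide 3 was 0.10, 0.081, 0.086, 0.12 and 0.086 for complexes I to V, while within slides 1 and 2 it lay between -0.032 and 0.0096. An unadjusted p under 0.05 was reached by 0, 1 and 3 subunits within slides 1, 2 and 3, where 6.81%, 8.75% and 3.94% of all genes reached it (limma, 4 mice per diet). The 1 within slide 2 was lower in GLU+GAL, and the 3 within slide 3 were higher. Higher in all 3 slides were 20 of the 81 subunits and 1954 of all genes. A test of whether the diet difference varied between slides (limma, F test of the interaction) gave no subunit and no other gene an adjusted p under 0.05, and 2 subunits an unadjusted p under 0.05, a share of 2.47% where 8.46% of all genes had one. Slide 3 held GLU 10 and GLU+GAL 3, the lowest GLU and the highest GLU+GAL mouse.

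**Figure D3:**
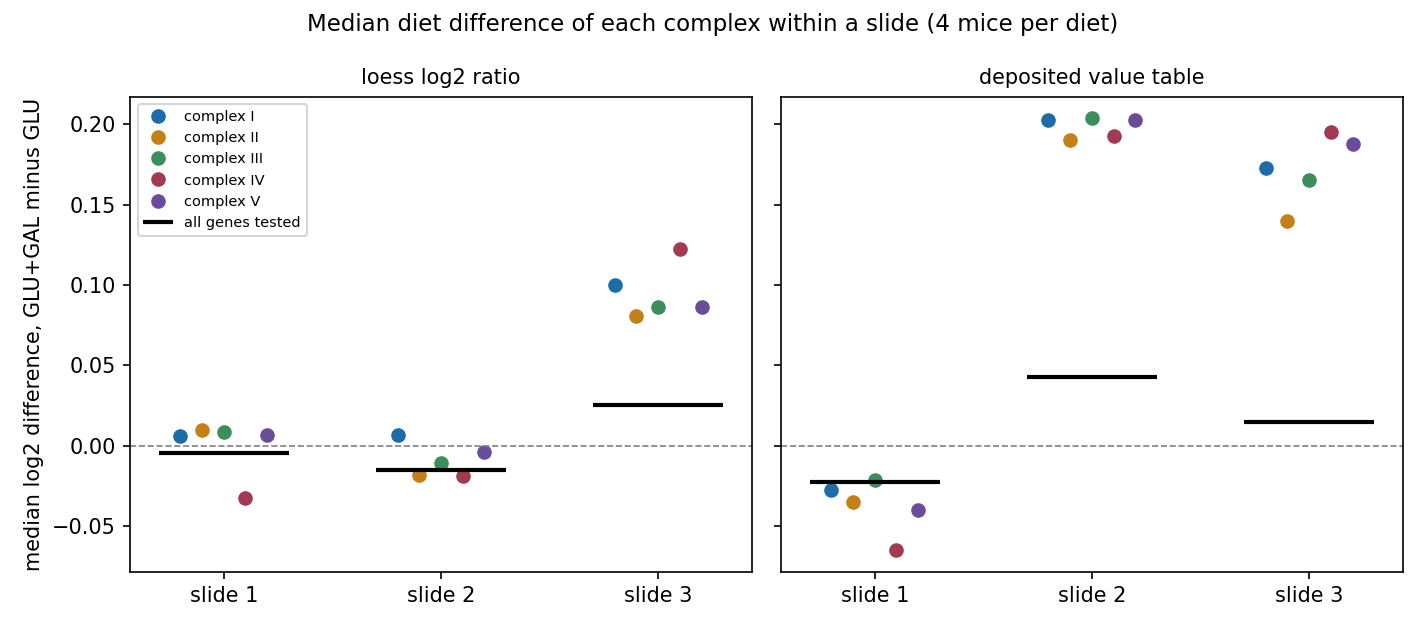
Median difference between GLU+GAL and GLU over the subunits of each complex (coloured points) and over all genes tested (black bars) within each slide, from the loess-normalised log2 ratios and from the deposited value table. In the ratios the complexes stand above all genes on slide 3, and in the deposited table on slides 2 and 3.

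Between mice the subunits varied little, and they varied together. The SD over the 24 mice was below that of the median gene (0.17) in 75 of the 81, with a median of 0.12. A low spread was not particular to them: the median SD was 0.12 in mitochondrial and 0.087 in cytosolic ribosomal proteins. Once the diet means were taken off, the median Pearson correlation over pairs of subunits was 0.40 (80 genes without a missing value, 24 mice), and 88.2% of the pairs were above 0. The median between subunits and other genes was 0.0087, and over pairs of all genes 0.010. All such pairs share their arrays, the pool and the normalisation of each array. The genes set beside the subunits were not matched for brightness, and 67 of the 81 subunits lie among the 1865 brightest genes. The part of brightness in these correlations and in the low spread was not tested. The medians within complexes were 0.42, 0.33, 0.36, 0.31 and 0.44 for complexes I to V, and the median between genes of different complexes was 0.40. The median over all pairs of subunits was also 0.40 with the slide by diet means taken off, and 0.44 without the 3 arrays whose pool channel stood apart. It was 0.20 from Cy5 alone and 0.66 from the values as deposited. The complex means followed each other most closely for complexes I and III (r = 0.95) and least for II and IV (r = 0.64).

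**Figure D4:**
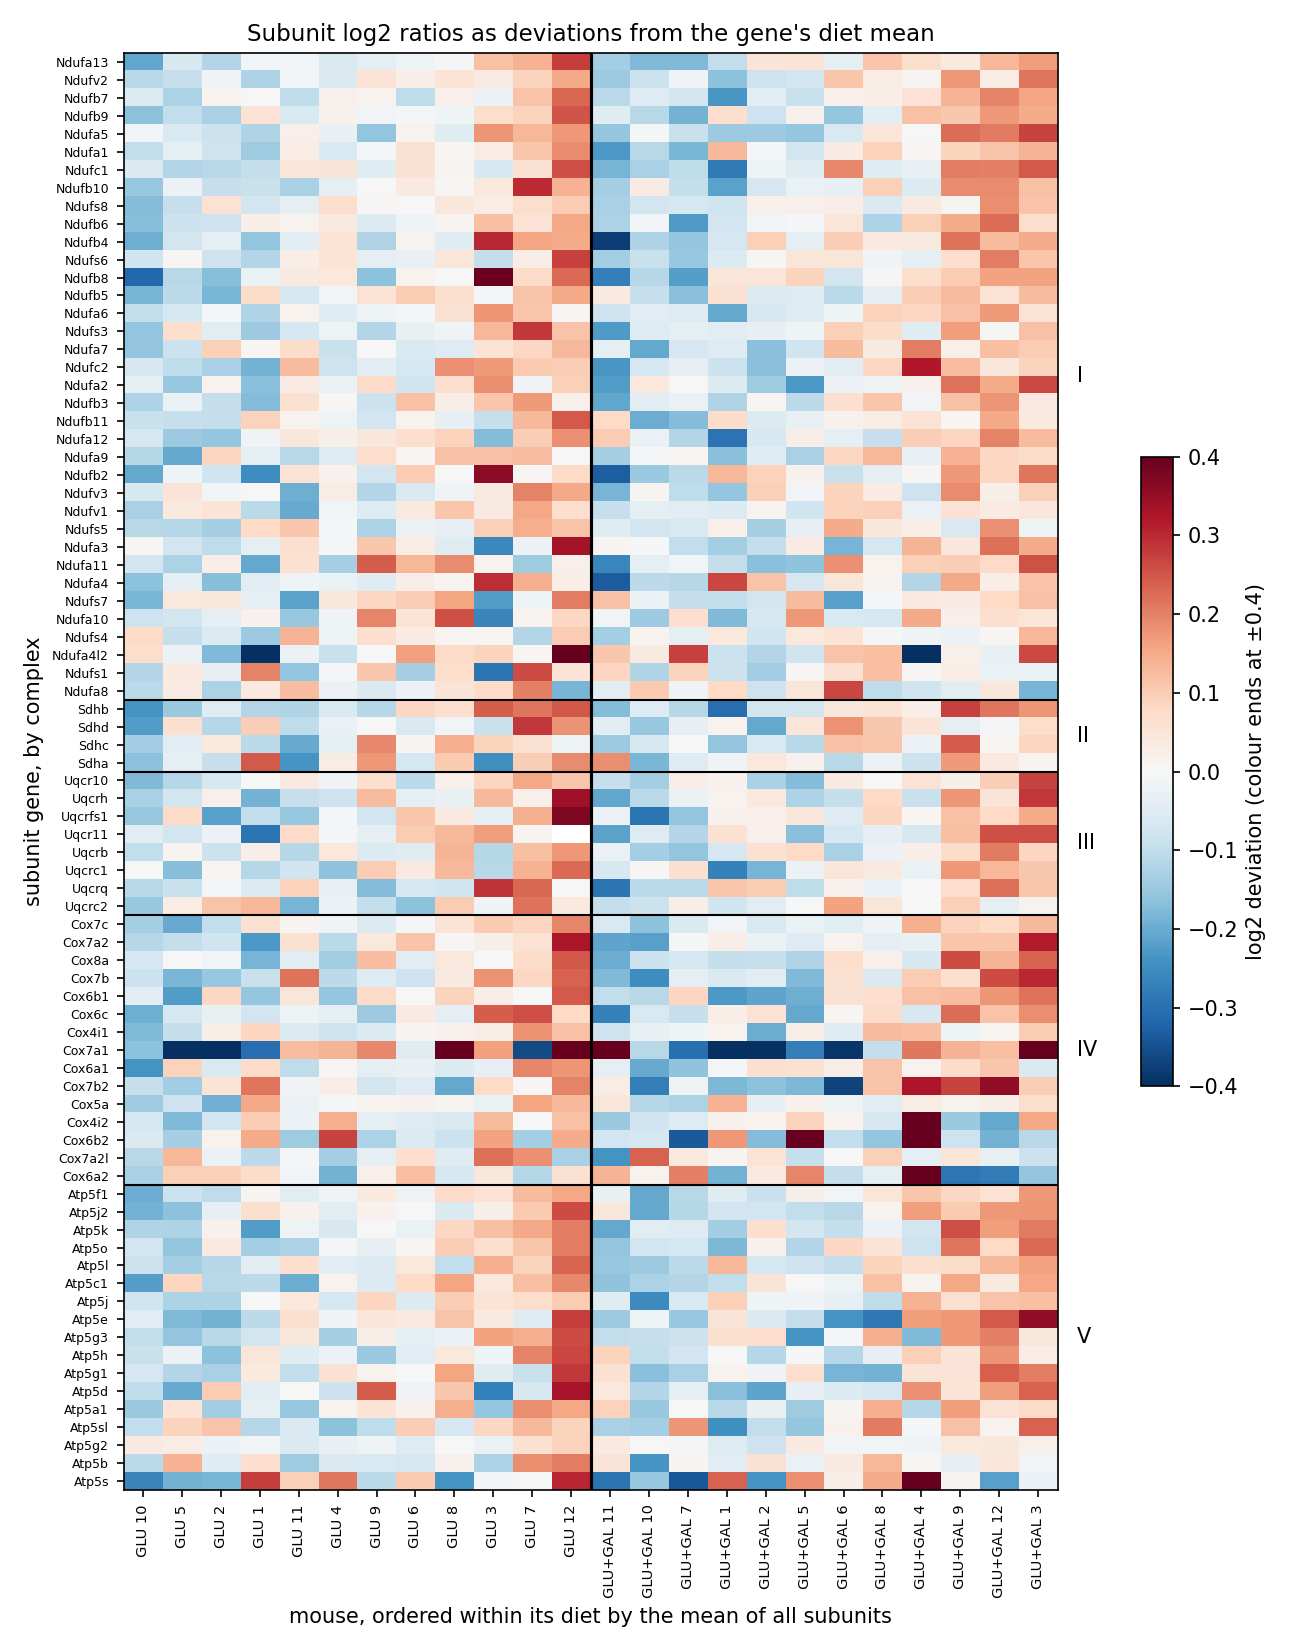
Log2 ratio of 80 of the 81 subunits (rows, by complex) in each mouse (columns, ordered by the mean over all subunits), as the deviation from the gene's mean in that diet; the colour scale ends at 0.4 on both sides. Most rows change colour together from one end of the order to the other, and Ndufa8, Cox6a2 and Cox7a2l are among the rows that do not.

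How far a single subunit went along with the rest was measured as its correlation with the mean of all other subunits. It was above 0.5 for 64 of the 81 and below 0 for 3. The highest were Atp5f1 (0.89), Ndufa13 (0.88), a complex I subunit also known as GRIM-19, Sdhb (0.87), Cox7c (0.86) and Ndufv2 (0.85), so 4 complexes were among the first 5. The lowest were Cox6a2 (-0.28), Ndufa8 (-0.19), Cox7a2l (-0.0056), Cox6b2 (0.038), Ndufs1 (0.16), Ndufa4l2 (0.21), Cox4i2 (0.26), Sdha (0.28) and Ndufs4 (0.29). Ndufa8, an accessory subunit, ran from -0.44 to -0.054 (median -0.25) in GLU and from -0.38 to 0.072 (median -0.22) in GLU+GAL. It was lowest in each diet in GLU 12 and GLU+GAL 3, the mice where the mean over all subunits was highest. The complex medians of this correlation were 0.67 for complex I, 0.53 for complex II, 0.66 for complex III, 0.58 for complex IV and 0.67 for complex V.

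**Figure D5:**
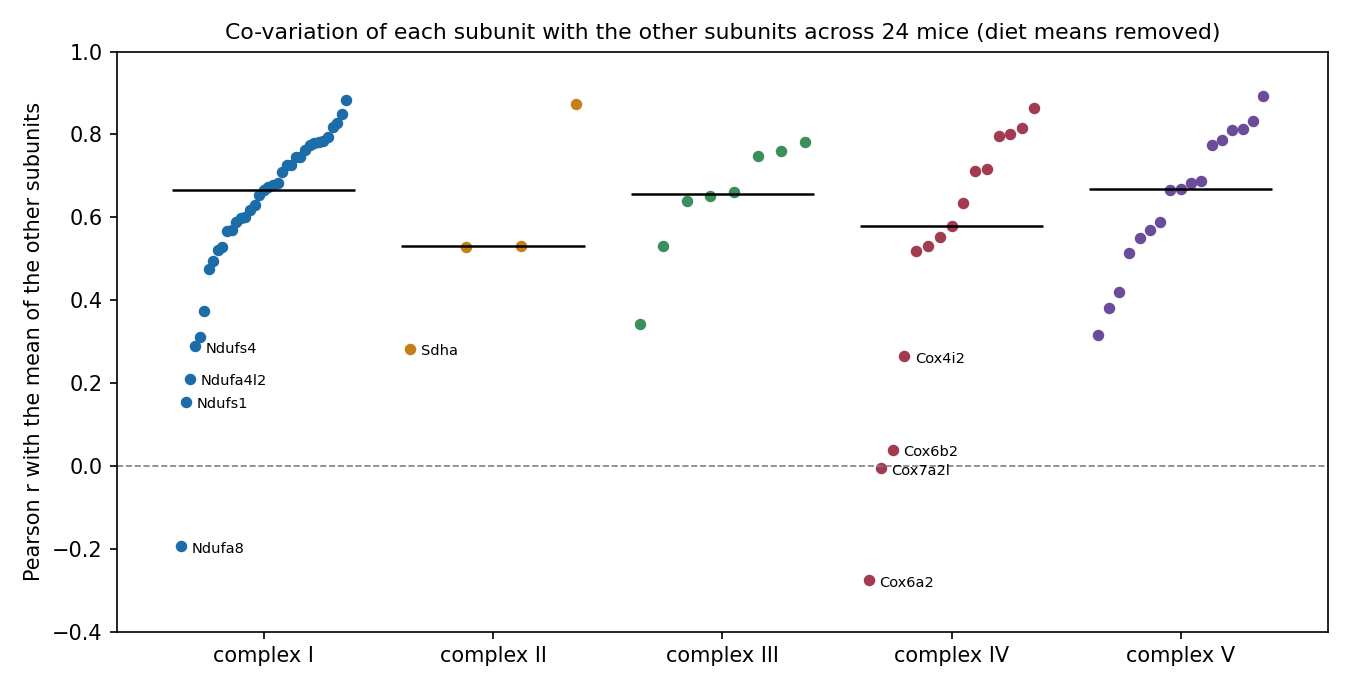
Pearson correlation of each subunit with the mean of all other subunits over 24 mice, after the diet means were taken off, by complex; genes below 0.3 are named. Most subunits lie above 0.5 in each complex, and the isoforms Cox6a2, Cox6b2, Cox4i2 and Ndufa4l2 lie low.

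Several subunits exist as isoforms from separate genes, one serving most tissues and the other muscle, lung or testis. Cox4i1 had a correlation of 0.64 with the other subunits and a difference of 0.035 ± 0.045, and for Cox4i2, the lung form, these were 0.26 and 0.054 ± 0.057. Cox6a1 had 0.55 and 0.024 ± 0.049, and Cox6a2, the heart and muscle form, -0.28 and 0.00092 ± 0.070. Cox6b1 had 0.72 and 0.047 ± 0.060, and the testis form Cox6b2 0.038 and 0.021 ± 0.089. In these 3 pairs the common form went along with the other subunits and the tissue-specific form did so less, a difference that was not tested. Cox7b had 0.80 and 0.043 ± 0.064, and the testis form Cox7b2 0.53 and -0.039 ± 0.076.

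In Cox6a2, Cox6b2 and Cox4i2 the highest mouse was GLU+GAL 4, with log2 ratios of 0.52, 0.79 and 0.58, and without it their differences were -0.041, -0.036 and 0.017. That array also had the highest mean over the 8 of 18 skeletal muscle markers that passed (-0.083 to 0.13 in GLU and -0.12 to 0.54 in GLU+GAL) and over the 4 of 8 heart markers that passed (-0.12 to 0.094 in GLU and -0.097 to 0.30 in GLU+GAL), and its pool channel stood apart. Of the 8 muscle markers that passed, all but Tnnt1 were at their highest on it, among them the fast-muscle genes Mylpf (1.05), Myh4 (0.86), Tnnt3 (0.83), Tnni2 (0.72) and Myl1 (0.55), and of the heart markers that passed only Myh6 (0.60) was. The other 10 muscle markers, Ckm, Acta1, Mb and Myh1 among them, were not well above background on it. High values on this array were not limited to muscle and heart markers. The kidney and adrenal markers Aqp2 (0.77), Hsd3b1 (0.56) and Slc34a1 (0.50) were also at their highest on it, while Cyp21a1 was not. Over all probes its log2 ratios had an SD of 0.50, the widest of the arrays, and the next was 0.31 (GLU 1). The part of other tissue, of this wide spread and of the pool in these values was not tested.

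Cox7a1, the heart and muscle form of the Cox7a subunit, was the most variable subunit that passed, with an SD of 0.45 over the mice, above that of 98.3% of all genes. It ran from -0.91 to 0.80 (median -0.12) in GLU and from -0.68 to 0.94 (median -0.30) in GLU+GAL. Its highest mouse in each diet, GLU 12 and GLU+GAL 3, was the one with the highest mean over all subunits, and its correlation with the others was 0.58. The diets overlapped over nearly the whole range, and the difference was -0.038 ± 0.17. Cox8a, the form of most tissues, was 0.022 ± 0.056 with a correlation of 0.80. Among the genes for the c-ring of the ATP synthase, the rotor that protons turn, Atp5g1 was 0.012 ± 0.057, Atp5g2 -0.021 ± 0.031 and Atp5g3 0.062 ± 0.057. Atp5g2 had 10 spots per array and the smallest spread between mice of the 81 (SD 0.043 for the means over these spots). Single spots of the same array had a median SD of 0.078, which is not comparable, since averaging 10 spots lowers their part in the SD between mice. Ndufa4, which is now placed in complex IV, was 0.059 ± 0.059 with a correlation of 0.48. Its relative Ndufa4l2, a gene known to respond to low oxygen, was 0.044 ± 0.087 with a correlation of 0.21.

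Cox8b, the muscle and brown fat form of Cox8, did not pass, being well above background on 1 array of each diet (GLU 10 and GLU+GAL 11). Its log2 ratio was 1.99 in GLU+GAL 11 and between -1.32 and -0.025 in the other 23 mice. In GLU+GAL 11 the brown adipose markers Ucp1 (2.17), Cidea (2.31) and Adipoq (1.15) and the adrenal markers Cyp21a1 (1.49), Cyp11b1 (1.44) and Star (1.41) were also at their highest, and all 6 lay at or below 0.58 in each other mouse. Over whole lists, 3 of 6 brown adipose markers passed, with means of -0.64 to 0.60 in GLU and -0.53 to 0.62 in GLU+GAL, and 4 of 11 kidney and adrenal markers, with means of -0.078 to 0.19 in GLU and -0.11 to 0.50 in GLU+GAL. The other brown adipose markers did not follow: in GLU+GAL 11 Elovl3 was -0.69 and Plin1 0.25, both higher in other mice, and Dio2 was well above background on none of the 24 arrays. Of the other kidney and adrenal markers, Aqp2 (0.33), Hsd3b1 (0.29) and Slc34a1 (-0.12) were well above background on that array and higher in other mice, and Cyp11a1, Umod, Kap, Slc12a1 and Slc12a3 were not well above background on any array. The part of such tissue in the subunit values was not tested. Without GLU+GAL 11, which had the lowest mean of its diet, the median difference over the 81 subunits was 0.043. Cox8c, the testis form, was well above background on GLU 10 alone.

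The other genes of the pathway were read from the same fit. Of 7 subunits whose names fall outside the rule, such as Ndufab1, the acyl carrier protein of complex I (0.064 ± 0.048), and Usmg5, a small ATP synthase subunit (0.059 ± 0.064), 6 had the higher mean, with a median of 0.018. Their mean followed that of the 81 over the mice (r = 0.83, 24 mice, deviations from the diet means, same arrays and pool). Of the 46 assembly factors that passed, of 47, 34 had the higher mean (median 0.033, r = 0.59) and 3 an unadjusted p under 0.05, all higher, where 1.65% of all genes were higher at that p. These were Acad9 (0.13 ± 0.051), needed to build complex I, Coa6 (0.17 ± 0.070), which helps copper reach complex IV, and Coa5 (0.14 ± 0.064), another complex IV factor. None of the 3 passed after adjustment (adjusted p 0.999, limma).

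For the electron carriers and exchangers, among them cytochrome c and the ATP/ADP carriers, 7 of 15 had the higher mean (median -0.0012, r = -0.026), with Cycs, cytochrome c, at 0.056 ± 0.052 and Dhodh, which feeds electrons to coenzyme Q, at 0.067 ± 0.074. Coenzyme Q synthesis had 9 of 13 higher (median 0.036, r = 0.55), with Coq7 at 0.13 ± 0.060 (unadjusted p 0.038, adjusted p 0.999, limma) and Coq6 at 0.078 ± 0.048. Of 22 regulators of mitochondrial biogenesis, 14 were higher (median 0.025, r = 0.17). Esrrg, an oestrogen-related receptor, was 0.22 ± 0.098 (unadjusted p 0.037, adjusted p 0.999, limma) and Polg2, a subunit of the mitochondrial DNA polymerase, 0.14 ± 0.080. Nrf1, Gabpa and Yy1, the factors of the motifs above, had differences of 0.052 ± 0.056, 0.071 ± 0.052 and -0.047 ± 0.072.

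Citric acid cycle genes had 9 of 14 higher (median 0.023, r = 0.71), with Dld, the shared dihydrolipoamide dehydrogenase, at 0.099 ± 0.057 and Idh3a, of the NAD-dependent isocitrate dehydrogenase, at 0.14 ± 0.083. Mitochondrial ribosomal proteins had 59 of 77 higher (median 0.025, r = 0.43), with Mrps6 at -0.098 ± 0.048 and Mrpl49 at 0.11 ± 0.056. Cytosolic ribosomal proteins, set beside them, had 36 of 77 that passed higher (median -0.0025, r = -0.35), with Rpsa at 0.17 ± 0.036 and Rps9 at -0.091 ± 0.035. These were the 2 of the 77 (2.60%) with an unadjusted p under 0.05, where 4.31% of all genes lay. Neither passed after adjustment (lowest adjusted p 0.523, limma).

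The genes read here held 11 subunits encoded in mitochondrial DNA, COX3 and ATP6 not among them, and all 11 passed. Of these, 4 had the higher mean in GLU+GAL, the median difference was -0.0069, and none had an unadjusted p under 0.05 (limma). Their median SD over the mice was 0.32, where that of the 81 nuclear subunits was 0.12. ND3, a complex I subunit, ran from -0.77 to -0.17 (median -0.45) in GLU and from -0.64 to 0.084 (median -0.24) in GLU+GAL, with 1 value missing (GLU 6), a difference of 0.15 ± 0.087 and a correlation with the nuclear subunits of 0.82. ATP8, of the membrane part of complex V, ran from -0.055 to 0.49 (median 0.11) in GLU and from -0.23 to 0.73 (median 0.31) in GLU+GAL, a difference of 0.11 ± 0.099 and a correlation of 0.52. COX1, the catalytic core of complex IV and chosen here after its values were seen, ran from -1.92 to 1.89 (median 0.50) in GLU and from -2.40 to 1.88 (median -0.26) in GLU+GAL, and both diets filled that wide range. Mouse GLU+GAL 6 was lowest for 8 of the 11 genes, while its mean over the nuclear subunits, -0.078, lay mid-range. The mean over the 11 genes ran from -0.68 in GLU+GAL 6 to 0.66 in GLU+GAL 3, with a correlation of 0.43 with the nuclear subunits.

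Cell type markers were read on the same arrays. Of 12 hepatocyte markers, 10 had the lower mean in GLU+GAL (median -0.14), 6 of them with an unadjusted p under 0.05 where 2.66% of all genes were lower at that p. Their mean per mouse ran 0.16 to 0.51 in GLU and 0.086 to 0.37 in GLU+GAL and had a correlation of 0.0076 with that of the subunits. All 11 Kupffer cell markers had the lower mean (median -0.21), 6 with an unadjusted p under 0.05, with means of -0.15 to 0.75 in GLU and -0.57 to 0.31 in GLU+GAL and a correlation of -0.24. For the 6 erythroid markers of 7 that passed, 2 of them higher (median -0.0081), the means were -0.30 to 0.60 in GLU and -0.15 to 0.42 in GLU+GAL and the correlation was -0.24. The correlation was 0.15 for the skeletal muscle markers (6 of 8 higher, median 0.018), -0.051 for the heart markers (4 of 4, 0.078), 0.14 for the kidney and adrenal markers (4 of 4, 0.062) and -0.46 for the brown adipose markers (1 of 3, -0.046). In the muscle list Myl1 and in the heart list Nppa passed the filter only through their GLU+GAL arrays. In the brown adipose list Cidea passed only through its GLU arrays. The counts of higher markers in these lists thus depend partly on the filter. The part of these cells in the subunit values was not tested.

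Outside the chosen subunits, an unnamed transcript, ENSMUST00000117515 (r = 0.91), and an unnamed probe, NAP114453-1 (0.88), followed their mean most closely over the 24 mice. Whether these belong to the pathway is not known. Next came Gm10639 (0.87), Gsta2 (0.87), a glutathione S-transferase, and Mcee (0.86), a mitochondrial methylmalonyl-CoA epimerase. Emc9 (0.86), of the endoplasmic reticulum membrane protein complex, followed. The probes of all these genes share a run of 11 bases at most with any probe of a subunit. Probe letters alone do not tell whether an unnamed one is a copy of a subunit gene.

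The source of the values changed the size of the lean. In the deposited value table, whose scaling no label or header states, 78 of 81 subunits had the higher mean (55.8% of all genes did) with a median difference of 0.11, and of 0.11, 0.10, 0.10, 0.14 and 0.12 for complexes I to V. An unadjusted p under 0.05 was reached by 15 subunits, all higher, where 4.29% of all genes reached it and 2.62% were higher. None passed after adjustment (adjusted p 0.998, limma), and the lowest p was that of Atp5g3 (0.018, limma, difference 0.16). Within slides 1, 2 and 3 the median there was -0.030, 0.20 and 0.18. Brightness moved with this: 67 of the 81 subunits lie among the 1865 brightest genes by mean Cy5 signal. Over these 1865 genes as a whole the median difference was -0.031 in the loess-normalised ratios, 0.027 in ratios centred on the median without loess and 0.047 in the deposited value table, where 76.7% of them lay above 0. The subunits' own median was 0.036, 0.090 and 0.11 in these 3 sources. With Cy5 alone it was 0.048, with 70 subunits higher (51.1% of all genes) and 1 at an unadjusted p under 0.05 (4.17%), and with Agilent's processed signals 0.043, with 64 higher (48.3%) and 2 at that p (5.97%). The part of brightness in the lean was not tested.

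Other probes gave a second reading of single genes. For 27 subunits, 33 further probes passed the filter. Of these, 27 had a difference of the same sign as the main probe, and their correlation with it over the mice had a median of 0.52 and ran from -0.32 to 0.89. The size could change either way. The further probe gave less than the main one for Ndufb8 (0.011) and Atp5sl (0.012), and more for Cox7c (0.093) and Uqcr10 (0.086).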

How the data were processed

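Each of 24 arrays carried Cy5-labelled liver RNA of 1 mouse and the Cy3-labelled pool. The deposited scanner files hold spot intensity on a linear scale, and the submitters' processing notes name Agilent Feature Extraction, version 10.7.3.1. The deposited value table holds log2 values (each column median 8.6) that follow log2 Cy5; no label or header states how the authors scaled it. In limma 3.58.1 (R 4.3.3) the background was corrected by normexp (offset 50), the ratio was normalised within arrays by loess and no step was taken between arrays. Control spots were left out, spots of a probe averaged, and the probe with the highest mean Cy5 signal stood for its gene name. Diets were compared with lmFit and eBayes, 2-sided, with Benjamini-Hochberg adjustment over 18649 genes and a threshold of 0.05. The fit held diet alone, with no term for the slide. The scripts were tested on simulated data.

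Members, lists and motifs were chosen with earlier results of these data known. Of the 83 subunits, 80 were matched to RefSeq by accession and the rest by symbol. Genes were named by rule: in each complex the 4 smallest p-values and the largest SD, all Sdh genes and isoforms, the highest and lowest difference and correlation, the 2 smallest p-values of each other pathway list, and the 6 nearest genes outside. Beside the rule, core subunits of complexes I, III and V, Coa5, COX1 and the factors of the motifs were named by role or after their values were seen. The values of 1 gene are not reported here. Alternatives covered background, normalisation, channel, filter, probe, slide, replicate block, variance model, array weights and single arrays. Added after seeing the data were a fit without the 3 arrays whose pool channel stood apart and a diet by slide interaction.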

Additional observations from a re-analysis of the deposited data

Results flagged for a closer look

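Cox8b was not part of the diet comparison, since it was well above background on 1 array of each diet. In GLU+GAL 11 its log2 ratio was 1.99, above all GLU arrays and above the other GLU+GAL arrays, whose values with GLU lay between -1.32 and -0.025. The brown adipose markers Ucp1, Cidea and Adipoq and the adrenal markers Cyp21a1, Cyp11b1 and Star were also at their highest on that array, while Elovl3 (-0.69) and Plin1 (0.25) were higher in other mice and Dio2 was well above background on none of the 24 arrays. The part of such tissue in the value was not tested.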

How the results depend on the processing

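Over 14 other settings the median difference of the 81 subunits lay between 0.031 (without GLU 1, GLU+GAL 4 and GLU+GAL 5, chosen after seeing the data) and 0.11 (deposited table), 60 to 78 subunits had the higher mean, and none passed the adjusted threshold by limma. The number with an unadjusted p under 0.05, 0 as reported, was 15 in the deposited table, 2 from Agilent's processed signals and 1 each with Aquantile between arrays (read from Cy5), with Cy5 alone, with array weights and within slide 2, and 3 within slide 3. Of all genes, 4.31% reached that p as reported, 4.29% in the deposited table, 5.97% from Agilent's signals and 4.17% with Cy5 alone. Within slides 2 and 3 it was 8.75% and 3.94%, and with Aquantile and array weights it was not counted. The deposited table gave medians of 0.11, 0.10, 0.10, 0.14 and 0.12 for complexes I to V, where 0.041, 0.040, 0.026, 0.026 and 0.030 were reported, and complex IV was 0.12 within slide 3. Subunits with the higher mean numbered 43 within slide 1 and 39 within slide 2. The cause of these shifts was not tested.

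Leaving out 1 array at a time gave 0 to 2 subunits with an unadjusted p under 0.05 (2 without GLU 12, 1 without GLU 3), 57 to 72 with the higher mean, and 0 to 1 genes of all with an adjusted p under 0.05 (1 without GLU 3). The share of all genes at an unadjusted p under 0.05 was not counted in these fits. With all 24 arrays it was 4.31% (limma). The median ran from 0.022 (without GLU+GAL 3) to 0.050 (without GLU 12) over all subunits. It ran from 0.023 (without GLU+GAL 3) to 0.051 for complex I, 0.018 (without GLU+GAL 9) to 0.054 for complex II, 0.014 (without GLU+GAL 9) to 0.038 for complex III, 0.016 (without GLU 10) to 0.046 (without GLU 12) for complex IV, and 0.010 (without GLU+GAL 3) to 0.055 (without GLU 12) for complex V. The sign of the difference changed in at least 1 setting for 24 of 81 subunits, in at least 1 such omission for 24 and in at least 1 slide for 57.

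Whether mice with the same replicate number form pairs could not be settled. Their correlation ran from -0.38 to 0.52 and was over 0.1 in 8 of 12 pairs. Of the GLU mice, 2 correlated best with the GLU+GAL mouse of their own number. Several such pairs also shared a slide. With the replicate block the median of the 81 was 0.036, 66 were higher and 0 had an unadjusted p under 0.05. The intervals limit what could be seen: 12 of 81 had an upper limit under 0.1.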
